A study of Nannochloropsis oceanica with 18 samples.

Results

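Very low CO2 (VLC) cultures of the marine microalga Nannochloropsis oceanica IMET1 were compared at 24 h and at 12 h after the transfer, using the 2 VLC 24 h libraries and the 2 VLC 12 h libraries. The genes described were those whose mean FPKM reached 10 in at least 1 of the 2 groups, 8924 of the 9756 genes in the deposited tables. FPKM are mapped fragments of a gene, scaled by its length and by the size of the library. Of these genes, 7218 reached the minimum at both times, 657 at 24 h only and 1049 at 12 h only. The gene nearest above the minimum was g8240, with a mean of 10.004 FPKM at 24 h, and the one nearest below was g8975, with 9.99 FPKM at 12 h.

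Cells in logarithmic growth on 5% CO2 were washed, put into fresh buffered medium and kept for 1 h at 5% CO2. They then received 0.01% CO2 (VLC) or stayed at 5% CO2 (high CO2, HC) under continuous light. The series holds 18 poly(A) RNA libraries in 9 groups of 2, at 0 h and in each arm at 4 later times up to 24 h. VLC 24 h and VLC 12 h therefore shared the strain, the fresh medium, the light and the gas supply and differed in the time since the transfer, and HC 24 h and HC 12 h gave the change over the same hours without the transfer. Each condition had 3 column reactors, each sampled at all times, and no source names the reactor behind a library. The p-values therefore measure only the spread between libraries, and libraries of the 2 times may come from the same culture. Time since the transfer and the age of the culture cannot be told apart within the VLC arm.

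Algae take up inorganic carbon mostly as bicarbonate and raise the CO2 level around the enzyme Rubisco with a carbon concentrating mechanism (CCM). Bicarbonate transporters bring the ion across membranes, and carbonic anhydrases interconvert bicarbonate and CO2. When CO2 is scarce, Rubisco also fixes oxygen, and the photorespiratory pathway recycles the phosphoglycolate that results, releasing CO2 and ammonia on the way. Carbon can also enter C4 acids through phosphoenolpyruvate carboxylase, and the ornithine urea cycle handles nitrogen and carbamoyl groups. In a culture, fewer cells of one state and less RNA per cell cannot be told apart.

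Replicate libraries lay close together. The median absolute difference between the 2 libraries of a group, on the log2(FPKM + 1) scale, was 0.07 at VLC 24 h and 0.09 at VLC 12 h, with correlations across genes of 0.995 and 0.991. The libraries had 36 and 37 genes at 0 FPKM at VLC 24 h and 41 and 35 at VLC 12 h. The 10 most abundant genes took 4.39 to 4.55% of the summed FPKM at VLC 24 h and 7.87 to 8.38% at VLC 12 h. FPKM are relative to the whole library, and the part of this difference in the changes of other genes was not tested. FPKM keep no read numbers, so the reads behind each gene's value are unknown. The paper lists more uniquely aligned reads for both VLC 24 h libraries than for either VLC 12 h library. The part of this difference in depth was not tested.

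Over these 12 hours 3160 of the 8924 genes (35.4%) were called, that is, they had an adjusted p of 0.05 or less and a change of at least 2-fold in log2(FPKM + 1). The test was limma, fitted to all 18 libraries, with Benjamini-Hochberg adjustment. Of the 8924 genes, 1331 (14.9%) rose at VLC 24 h and 1829 (20.5%) fell. The falls were larger than the rises. Among the called genes 116 rose and 927 fell at least 4-fold, and 4 rose and 139 fell at least 16-fold. The median change of all members was 0.12 on the log2 scale. Values called relative to the median gene are log2 changes, or differences between arms, after subtraction of the median over the tested genes. The libraries themselves were not rescaled for this. After the subtraction 1025 genes (11.5%) rose and 2016 (22.6%) fell. With quantile normalization the split turned to 1892 higher and 1757 lower. A gene that reaches the FPKM minimum at 1 time only tends to be called in that direction, and among the 7218 genes at the minimum at both times 956 rose (13.2%) and 952 fell (13.2%). By adjusted p alone 7087 genes differed, the median standard error of a change being 0.12.

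**Figure D1:**
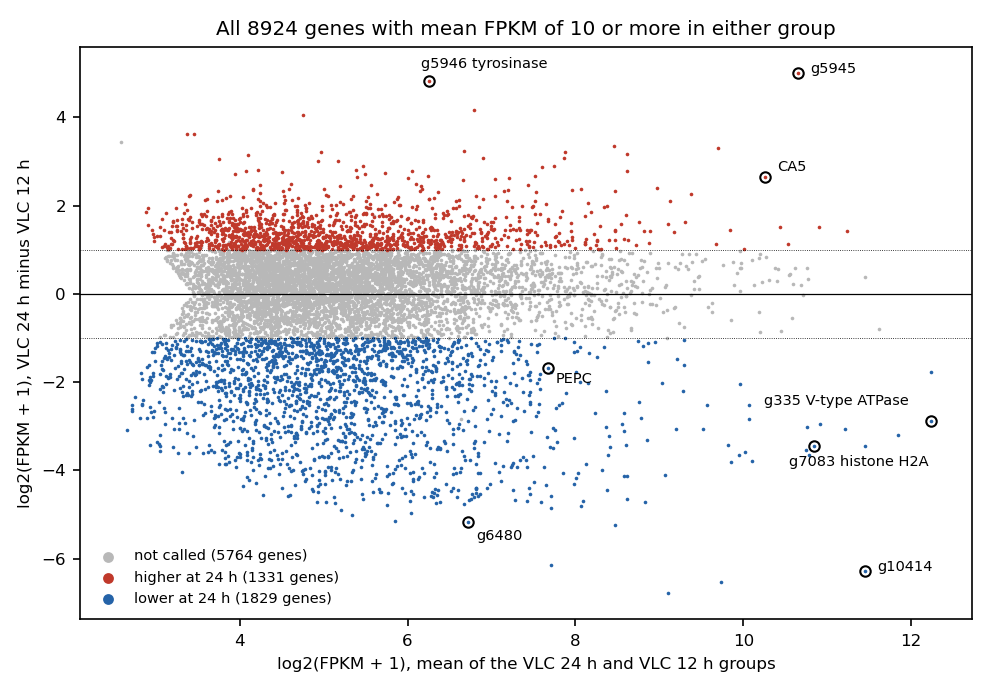
Change in log2(FPKM + 1), VLC 24 h minus VLC 12 h (vertical axis), against the mean log2(FPKM + 1) of the 2 groups (horizontal axis) for the 8924 genes. Each point is a gene, coloured by its call, dotted lines mark 2-fold, and the cloud of 1829 falls reaches further from 0 than that of 1331 rises.

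Genes called higher had a median of 45.1 FPKM at VLC 24 h and 17.3 FPKM at VLC 12 h. Their medians at the earlier times were 28.7 FPKM at 0 h, 28.6 at VLC 3 h and 21.6 at VLC 6 h. Genes called lower had a median of 10.7 FPKM at VLC 24 h and 53.5 FPKM at VLC 12 h, against 16.3 FPKM at 0 h, 17.7 at 3 h and 23.1 at 6 h. Both sets were chosen by their values at VLC 24 h and VLC 12 h, so their medians at these times follow from the choice. Over all members the medians were 25.3 FPKM at 0 h, 27.1 at VLC 3 h, 26.8 at VLC 6 h, 31.3 at VLC 12 h and 29.6 at VLC 24 h. The same sets had medians of 31.6 FPKM (genes higher in VLC) and 12.1 FPKM (genes lower in VLC) at HC 24 h, and of 7.92 and 53.3 FPKM at HC 12 h.

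The biophysical CCM was dominated by CA5 (g6125, scaffold00214, 208828 to 211164 in the coordinates of the deposited tables), one of the carbonic anhydrases the study assigned to it. CA5 had 2111 and 2092 FPKM in the VLC 24 h libraries, against 353 and 321 FPKM in the VLC 12 h libraries, a 6.24-fold rise (log2 change 2.64 ± 0.23 SE, limma, adjusted p = 1.2e-07). The groups were far apart, and both libraries of each time lay within a narrow range. CA5 had stood at 327 FPKM at 0 h, 291 at VLC 3 h and 1124 at VLC 6 h, so the 24 h level was the highest of the 5 times. In HC it had 64.2 FPKM at 24 h and 32.6 FPKM at 12 h. The change in VLC exceeded that in HC by 1.68 ± 0.33 on the log2 scale (limma, adjusted p = 0.00047), and by 2.26 relative to the median gene.

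None of the other 5 genes of this list was called. CA2 (g2018) had 53.6 and 55.9 FPKM at VLC 24 h and 33.5 and 30.9 FPKM at VLC 12 h, and BCT1 (g19) had 100.4 and 103 FPKM at VLC 24 h and 71.7 and 65.6 FPKM at VLC 12 h. BCT1 and BCT2 are the bicarbonate transporters of the SLC4 family named by the study, and the deposited annotation calls both boron transporter 1. BCT2 (g1855) stayed within 33.3 to 37.3 FPKM over the 4 libraries. CA3 (g2209, annotated as a gamma-type carbonic anhydrase) and CA4 (g4812) had log2 changes of -0.53 and -0.52. In the list, 1 of 6 members (16.7%) rose and none fell, beside 14.9% and 20.5% over all members. The median log2 ratio of mean FPKM was 0.34, beside 0.12 over all members. The study chose this list and those below on these libraries, so their counts are not independent evidence.

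All 5 candidate bicarbonate transporters were called higher. The ABC transporter g6756, annotated as subfamily G of the ATP-binding cassette family, which drives transport with ATP, had 217 and 216 FPKM at VLC 24 h and 47.7 and 43.5 FPKM at VLC 12 h (log2 change 2.23 ± 0.08, limma, adjusted p = 1.2e-11). Its level at HC 24 h was 60.6 FPKM and at HC 12 h 10.8 FPKM, and the difference between the arms (-0.16) was not called. The SLC26 genes, anion transporters by family, were lower in level: g9142 had 143 and 140 FPKM at VLC 24 h and 62.7 and 59.7 FPKM at VLC 12 h. In HC g9142 had 26.8 FPKM at 24 h and 35.4 FPKM at 12 h, which was not called, and the difference between the arms was 1.59 ± 0.12 (limma, adjusted p = 1.2e-07).

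The 3 remaining candidates lay close to the 2-fold minimum. The SLC26 genes g6134 (deposited annotation MC family transporter) and g9968 (annotated as RCC1-like) had 28.0 and 29.9 FPKM and 24.7 and 25.0 FPKM at VLC 24 h, with 12.0 and 14.01 FPKM and 12.7 and 9.72 FPKM at VLC 12 h. The ABC transporter g6647 had 97.3 and 95.9 FPKM at VLC 24 h and 48.6 and 44.7 FPKM at VLC 12 h. Relative to the median gene these 3 fell under 2-fold, with log2 changes of 0.98 (g6134), 0.97 (g9968) and 0.92 (g6647), and 2 of the 5 candidates stayed called. Without VLC 12 h replicate 2, g6647 (0.98) and g9968 (0.92) were not called, and without VLC 12 h replicate 1, g6134 (0.995) was not. With a pseudocount of 0.1, g6134 had a log2 change of 1.15 and a limma adjusted p of 0.08. The 3 LCIA homologs, relatives of a chloroplast bicarbonate channel of Chlamydomonas, were not called. Of these g544 (annotated only as DUF399) had 87.8 and 87.6 FPKM at VLC 24 h and 50.7 and 55.2 FPKM at VLC 12 h, a log2 change of 0.72.

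**Figure D2:**
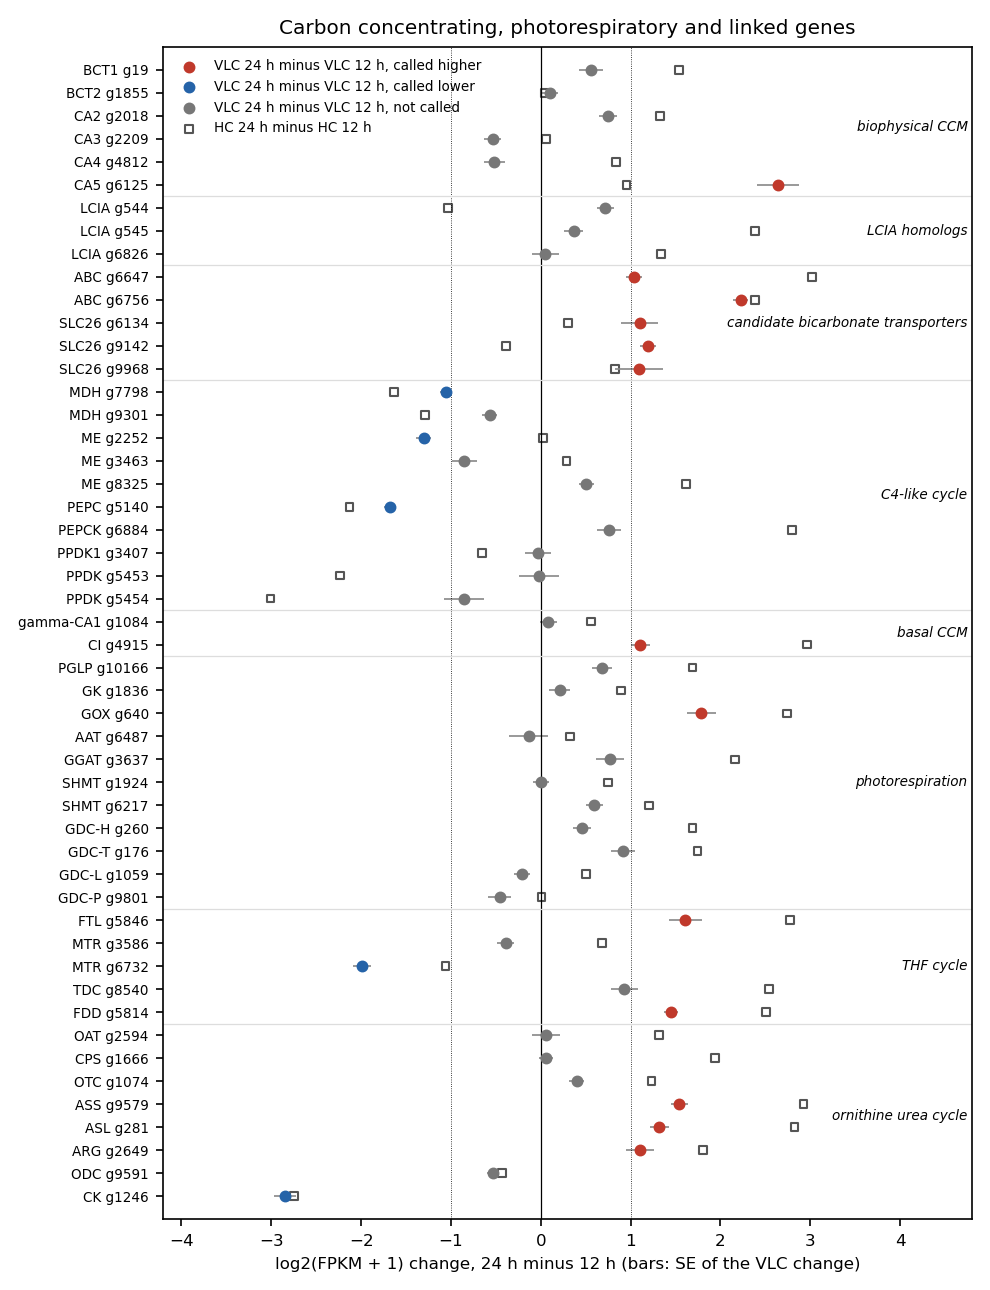
Change in log2(FPKM + 1) from 12 h to 24 h (horizontal axis) for the genes of the study's CCM, C4-like, photorespiration, tetrahydrofolate (THF) and ornithine urea lists (rows). Filled points are VLC 24 h minus VLC 12 h with their standard error, open squares HC 24 h minus HC 12 h, and CA5 is the rightmost VLC point at 2.64.

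The C4-like genes had falls and no rises. Phosphoenolpyruvate carboxylase (PEPC, g5140, scaffold00145, 851011 to 854427), which adds bicarbonate to phosphoenolpyruvate, had 95.9 FPKM in both VLC 24 h libraries, against 311 and 308 FPKM at VLC 12 h. This 3.23-fold fall (log2 change -1.68 ± 0.07, limma, adjusted p = 2.1e-11) had a counterpart in HC, where PEPC had 81.8 FPKM at 24 h and 361 FPKM at 12 h. Malate dehydrogenase g7798 had 102 and 104 FPKM at VLC 24 h and 206 and 225 FPKM at VLC 12 h, and the NAD-dependent malic enzyme g2252 had 24.2 and 22.7 FPKM at VLC 24 h and 63.2 and 55.8 FPKM at VLC 12 h. Both fell, and both enzymes act on malate, the C4 acid. The call of g7798 was lost without VLC 12 h replicate 2 (log2 change -0.99), and the malic enzyme g3463 (-0.85) was called without VLC 24 h replicate 2 (-1.004).

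Pyruvate, phosphate dikinase (PPDK), which regenerates phosphoenolpyruvate, kept high levels in VLC. The gene g5453 had 646 and 673 FPKM at VLC 24 h and 675 and 663 FPKM at VLC 12 h, and the groups overlapped. In HC it had 24.5 FPKM at 24 h and 118 FPKM at 12 h, so the change in VLC exceeded that in HC by 2.21 ± 0.32 (limma, adjusted p = 3.3e-05). Its neighbour g5454, 955 bp away on scaffold00182 with the same annotation, had 245 and 252 FPKM at VLC 24 h and 460 and 440 FPKM at VLC 12 h, a log2 change of -0.85 that was past the 2-fold minimum only with quantile normalization (-1.11). PPDK1 (g3407) lay between 267 and 285 FPKM in all 4 libraries. Reads of near-identical copies were left out by the aligner settings, and reads may be split between the 2 adjacent models. Phosphoenolpyruvate carboxykinase (g6884), which releases CO2 from oxaloacetate, had 468 and 488 FPKM at VLC 24 h and 288 and 276 FPKM at VLC 12 h, a log2 change of 0.76 that was called only with quantile normalization (1.11). Of the 10 genes of the list 3 (30%) fell and none rose, beside 20.5% and 14.9% over all members. The median log2 ratio of the list was -0.71.

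Among the 11 photorespiratory genes 1 (9.09%) was called higher and none lower, beside 14.9% and 20.5% over all members. Glycolate oxidase (GOX, g640), which oxidises glycolate to glyoxylate, had 163 and 162 FPKM at VLC 24 h and 49.1 and 43.7 FPKM at VLC 12 h (log2 change 1.79 ± 0.16, limma, adjusted p = 1.2e-07). It had stood at 196 FPKM at 0 h and 210 FPKM at VLC 6 h, and 12 h was the lowest of the 5 times. In HC it had 45.8 FPKM at 24 h and 6.08 FPKM at 12 h. The T-protein of glycine decarboxylase (g176) had 190 and 193 FPKM at VLC 24 h and 104 and 98.5 FPKM at VLC 12 h, and glutamate:glyoxylate aminotransferase (g3637), which makes glycine from glyoxylate, had 176.5 and 185 FPKM at VLC 24 h and 108 and 104 FPKM at VLC 12 h. Both stayed under 2-fold, with log2 changes of 0.91 and 0.77, and g176 was called only with quantile normalization (1.12). Phosphoglycolate phosphatase (g10166), the entry step, had a log2 change of 0.68, and the serine hydroxymethyltransferase g1924 one of 0.00. The gene listed by the study as P-protein of glycine decarboxylase (g9801, annotated here as an isoprenylcysteine carboxyl methyltransferase) had one of -0.46, and the median log2 ratio of the list was 0.46. Of these genes g1924 had overlapping groups.

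The tetrahydrofolate genes, which carry the 1-carbon units that glycine decarboxylase releases, moved in both directions. Formate-tetrahydrofolate ligase (g5846) had 348 and 391.5 FPKM at VLC 24 h and 127 and 114 FPKM at VLC 12 h, and formaldehyde dehydrogenase (g5814) had 226 and 231 FPKM at VLC 24 h and 80.1 and 85.8 FPKM at VLC 12 h. Both rose, with log2 changes of 1.61 ± 0.18 and 1.45 ± 0.08 (limma, adjusted p = 1.4e-06 and 6.9e-10). Methylenetetrahydrofolate reductase g6732, which feeds methionine synthesis, fell to 11.5 and 13.0 FPKM at VLC 24 h, against 51.5 and 51.4 FPKM at VLC 12 h. Its second gene, g3586, had a log2 change of -0.39 and was not called.

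Of the 8 ornithine urea cycle genes 3 (37.5%) rose and 1 (12.5%) fell, beside 14.9% and 20.5% over all members. Argininosuccinate synthetase (g9579) had 153 and 159 FPKM at VLC 24 h and 55.0 and 51.0 FPKM at VLC 12 h, argininosuccinate lyase (g281) had 67.4 and 69.9 FPKM at VLC 24 h and 27.0 and 26.9 FPKM at VLC 12 h, and arginase (g2649) had 37.1 and 44.9 FPKM at VLC 24 h and 19.6 and 17.3 FPKM at VLC 12 h. These 3 enzymes make and cleave arginine. The call of arginase was lost relative to the median gene (0.99) and without VLC 24 h replicate 2 (0.97). Carbamoyl phosphate synthase (g1666), the entry enzyme, had 49.0 and 51.2 FPKM at VLC 24 h and 49.2 and 47.1 FPKM at VLC 12 h, and the groups overlapped. The gene that fell, g1246, is listed by the study as CK and is a myosin in the deposited annotation, with 7.28 and 6.42 FPKM at VLC 24 h and 54.1 and 56.7 FPKM at VLC 12 h. All 4 were called the same way in HC, with log2 changes there of 2.92 (g9579), 2.82 (g281), 1.81 (g2649) and -2.75 (g1246).

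Of the 17 organelle transporters of the study's list, the sodium/hydrogen exchanger g2617 rose, with 105 and 107 FPKM at VLC 24 h and 46.0 and 48.6 FPKM at VLC 12 h. The exchanger g4014 and the bile acid:Na+ symporter g2277 fell by 1.02 and 1.07 on the log2 scale. Both calls depended on single libraries: without VLC 24 h replicate 1 neither was called (-0.93 for g4014 and -0.94 for g2277), nor was g4014 without VLC 12 h replicate 2 (-0.91) or with quantile normalization (-0.98). The complex I subunit g4915, listed with the basal CCM, had 63.1 and 67.3 FPKM at VLC 24 h and 30.8 and 28.7 FPKM at VLC 12 h (log2 change 1.11, and 0.99 relative to the median gene). The gamma-CA1 gene g1084 lay within 108 to 117 FPKM in the 4 libraries. The actin-related gene g3056, the study's reference gene for PCR, had 28.9 and 29.4 FPKM at VLC 24 h and 21.5 and 23.9 FPKM at VLC 12 h.

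**Figure D3:**
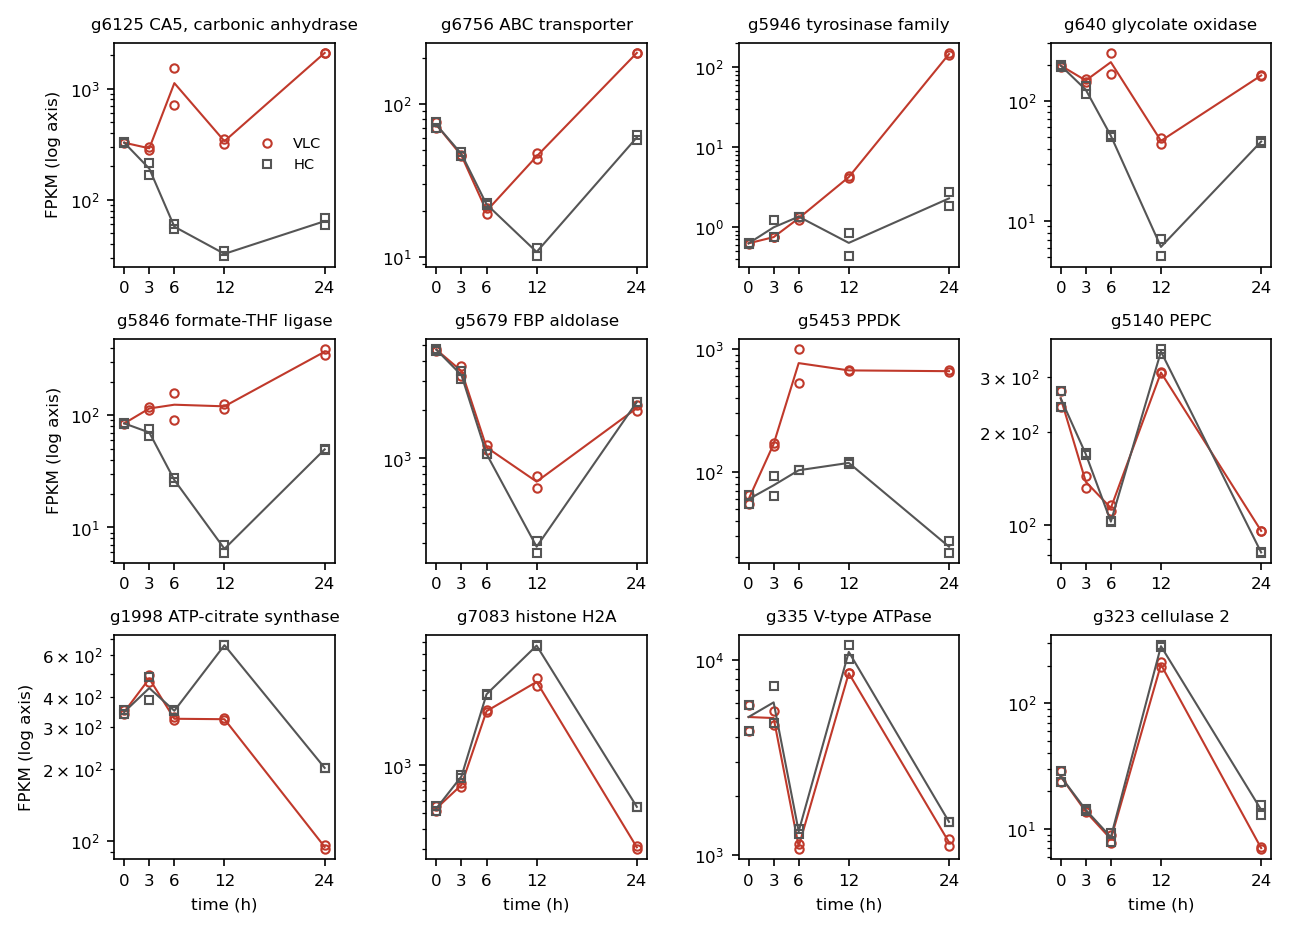
FPKM (log axis) over time (h) of 12 genes in VLC (circles) and HC (squares), 1 point per library with lines through the group means. The 0 h libraries are common to both arms. CA5 and the tyrosinase gene reach their highest level at VLC 24 h, while PEPC, histone H2A, the V-type ATPase gene and cellulase 2 stand higher at 12 h than at 24 h in both arms.

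Of carbon fixation and pigment genes, 42.9% and 33.3% were called higher, beside 14.9% over all members. Of 28 Calvin cycle genes 12 (42.9%) rose and 1 fell, and their median level was 217 FPKM at VLC 24 h and 114 FPKM at VLC 12 h. Fructose-1,6-bisphosphate aldolase (g5679) was the largest of these, with 1953 and 2136 FPKM at VLC 24 h and 778 and 661 FPKM at VLC 12 h (log2 change 1.51). Triose-phosphate isomerase (g4241) had 240 and 246 FPKM at VLC 24 h and 81.8 and 71.6 FPKM at VLC 12 h. The largest rise in the list belonged to g7043, annotated as similar to a sugar phosphate cyclase (2-epi-5-epi-valiolone synthase), with 53.4 and 52.0 FPKM at VLC 24 h and 10.4 and 10.2 FPKM at VLC 12 h, which is no Calvin cycle enzyme by that name. The gene that fell was a fructose-1,6-bisphosphatase (g3020), at 18.1 and 16.3 FPKM at VLC 24 h and 38.5 and 38.2 FPKM at VLC 12 h. Relative to the median gene 8 of the 28 rose. The median log2 change of the list was 1.65 in HC and 0.80 in VLC, beside 0.64 and 0.12 over all members. As measured, the difference between the arms was called lower for 15 of the 28 and higher for none, beside 2233 and 503 of all 8924 members. Relative to the median gene it was called lower for 7 and higher for 1, beside 399 and 1105 of all members.

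Of 33 pigment genes 11 rose and 1 fell. The list follows the annotation, and its genes g1738, g3710 and g4339 are also in the small GTPase and vesicle traffic list. Magnesium chelatase subunit D (g2511), which commits protoporphyrin to chlorophyll, had 351 and 367 FPKM at VLC 24 h and 142 and 125 FPKM at VLC 12 h, and the divinyl reductase g7977 of the same branch had 73.7 and 74.9 FPKM at VLC 24 h and 28.5 and 27.3 FPKM at VLC 12 h. The beta-carotene desaturase g5777 fell to 150 and 150 FPKM at VLC 24 h, against 362 and 373 FPKM at VLC 12 h. The antenna and photosystem genes moved less. Of 26, 1 was called (g4156, a light harvesting protein with 407 and 417 FPKM at VLC 24 h and 198 and 185 FPKM at VLC 12 h), although all 26 had log2 ratios above 0, from 0.01 to 1.11 with a median of 0.45. Relative to the median gene g4156 was under 2-fold (0.98). The median log2 change of the pigment genes was 1.65 in HC and 0.66 in VLC. As measured, the difference between the arms was called lower for 21 of these 33 genes and higher for none. Relative to the median gene it was called lower for 6 and higher for 1.

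Of 16 genes matched as TCA cycle, which oxidises acetyl units in mitochondria, 5 fell and none rose. Their median log2 ratio was -0.73, and all 16 were at the FPKM minimum at both times. The malate dehydrogenase g7798, counted above with the C4-like genes, is 1 of the 5. ATP-citrate synthase (g1998), also 1 of the 5, exports acetyl units from citrate and is no step of the cycle by that name. It had 96.6 and 92.9 FPKM at VLC 24 h and 320 and 326 FPKM at VLC 12 h (log2 change -1.76). The iron-sulfur subunit of succinate dehydrogenase (g1639) had 85.9 and 88.1 FPKM at VLC 24 h and 248 and 255 FPKM at VLC 12 h. Over the course of VLC the median TCA gene had 75.8 FPKM at 0 h, 105 FPKM at 3 h, 118 FPKM at 6 h, 198 FPKM at 12 h and 90.9 FPKM at 24 h. The respiratory chain had 1 of 34 genes called, with a median log2 ratio of 0.00, which turns negative relative to the median gene. Over all members 14.9% rose and 20.5% fell. In glycolysis 2 of 20 genes rose and 3 fell, and of the 16 at the minimum at both times none rose and 1 fell. The largest fall was that of a pyrophosphate-dependent 6-phosphofructokinase (g1526), with 3.68 and 3.86 FPKM at VLC 24 h and 92.4 and 87.0 FPKM at VLC 12 h. The rises of a glucokinase (g871, 1.03) and a phosphoglycerate mutase (g10298, 1.18) were not called without VLC 12 h replicate 2 (0.79 and 0.82), and that of g871 neither without VLC 24 h replicate 1 (0.95) nor relative to the median gene (0.91).

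**Figure D4:**
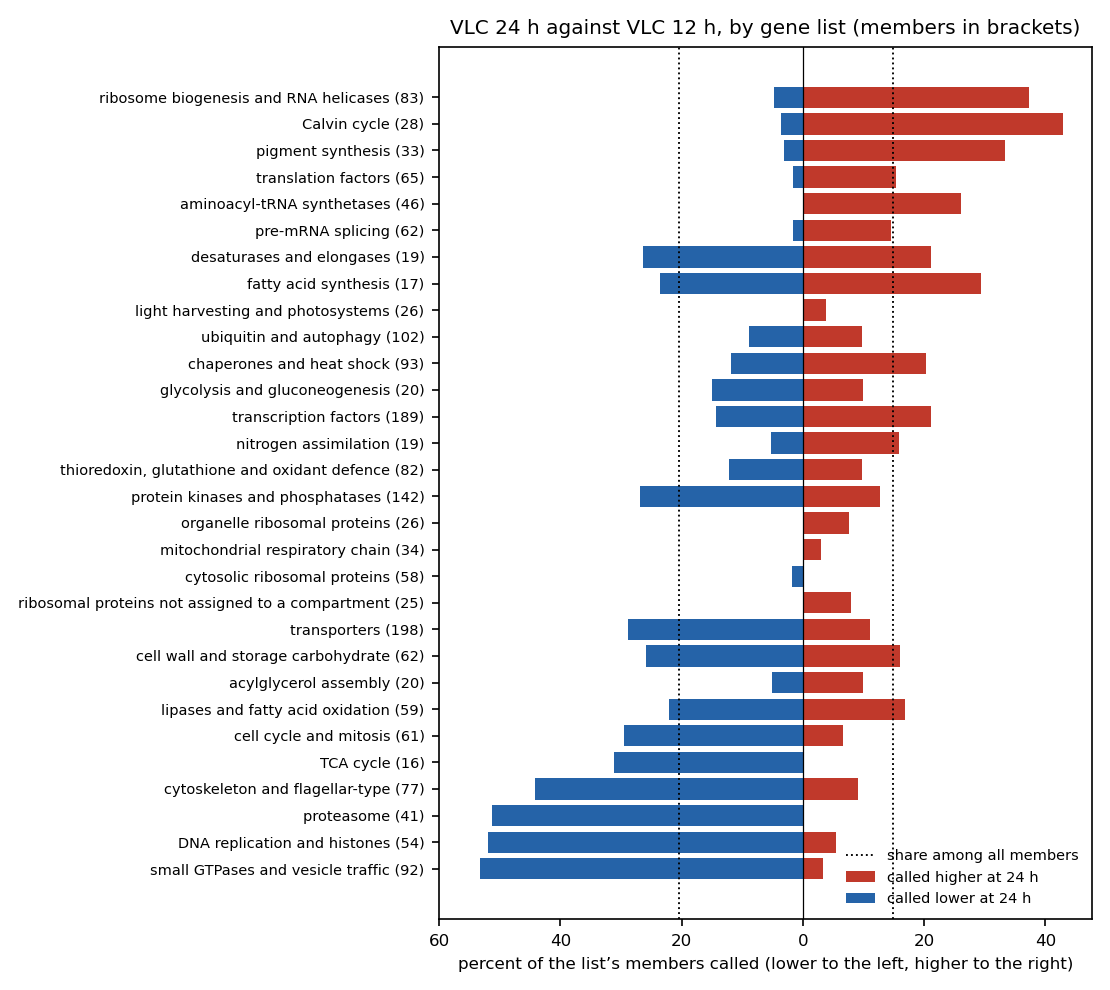
Percent of the members of each keyword list called higher (right) and lower (left) at VLC 24 h against VLC 12 h, with the number of members in brackets and the lists ordered by median log2 ratio. Dotted lines show the shares over all 8924 members, 14.9% higher and 20.5% lower.

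Most genes that build ribosomes (75 of 83) or charge tRNAs (38 of 46) had log2 ratios above 0, as did 4880 of the 8924 members. Of 83 genes of ribosome biogenesis and RNA helicases 31 (37.3%) rose and 4 (4.82%) fell, with a median log2 ratio of 0.87, and relative to the median gene the counts were again 31 and 4. Among the 65 at the FPKM minimum at both times 19 rose and 2 fell. The U3 small nucleolar ribonucleoprotein g1748, part of the particle that processes pre-ribosomal RNA, had 30.4 and 31.8 FPKM at VLC 24 h and 5.14 and 4.57 FPKM at VLC 12 h. The RNA helicase g3874 had 66.0 and 67.0 FPKM at VLC 24 h and 13.4 and 13.5 FPKM at VLC 12 h, while the helicase g5827 fell to 51.5 and 49.8 FPKM at VLC 24 h, against 204 and 199 FPKM at VLC 12 h. For all 3 genes the groups were far apart. The median log2 change of the 83 genes was 1.64 in HC and 0.84 in VLC, beside 0.64 and 0.12 over all members. As measured, the difference between the arms was called lower for 32 of them and higher for none, beside 2233 and 503 of all 8924 members. Relative to the median gene it was called lower for 1 and higher for none.

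Of 46 aminoacyl-tRNA synthetases, which load amino acids on tRNAs, 12 rose and none fell, and relative to the median gene 7 rose and 1 fell. Valine-tRNA ligase (g9640) had 129 and 137 FPKM at VLC 24 h and 36.9 and 36.8 FPKM at VLC 12 h. The median log2 change of the synthetases was 1.75 in HC and 0.57 in VLC. As measured, the difference between the arms was called lower for 27 of the 46 and higher for 1. Relative to the median gene it was called lower for 5 and higher for 1. Translation factors had 10 of 65 genes higher (15.4%) and 1 lower (1.54%), beside 14.9% and 20.5% over all members. With quantile normalization 19 of them were higher. The plastid elongation factor EF-G (g162) had 565 and 555 FPKM at VLC 24 h and 198.7 and 175.9 FPKM at VLC 12 h, and the initiation factor 4 gamma gene g2679 had 24.3 and 23.9 FPKM at VLC 24 h and 70.4 and 80.2 FPKM at VLC 12 h. Few ribosomal proteins were called: of 58 cytosolic ones 1 fell (g4087, 60S protein L23a, 377 and 398 FPKM at VLC 24 h and 1725 and 1472 FPKM at VLC 12 h) and none rose, with a median log2 ratio of -0.01 (3 fell relative to the median gene and without VLC 24 h replicate 2, and 2 without VLC 12 h replicate 2). The median cytosolic ribosomal protein gene had 228 FPKM at VLC 24 h and 229 FPKM at VLC 12 h, with 967 FPKM at HC 24 h and 395 FPKM at HC 12 h. As measured, the difference between the arms was called lower for 54 of the 58, beside 2233 of all 8924 members. Relative to the median gene it was called lower for 3, beside 399 of all members. It was called higher for none on either scale. Of 26 organelle ribosomal proteins 2 rose, chloroplast L15 (g1529, log2 change 1.01) and S1 (g1874, 1.18). The call of g1529 was lost relative to the median gene (0.89), without VLC 24 h replicate 2 (0.95) and without VLC 12 h replicate 2 (0.97). Of 62 splicing genes 9 (14.5%) rose and 1 (1.61%) fell, so the share that rose was near that over all members. Relative to the median gene 4 rose, and with quantile normalization 16.

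The proteasome, the complex that degrades ubiquitin-tagged proteins, was lower in transcript level. Of 41 proteasome genes 21 (51.2%) fell and none rose, beside 20.5% and 14.9% over all members. Their median log2 ratio was -1.03, and all 41 were at the FPKM minimum at both times. The regulatory subunit N8 (g10258) averaged 14.99 ± 0.017 FPKM at VLC 24 h and 66.8 ± 0.12 FPKM at VLC 12 h (SD, n = 2 each), and the regulatory ATPase g2841 had 83.4 and 69.0 FPKM at VLC 24 h and 265 and 279 FPKM at VLC 12 h. The median proteasome gene had 35.6 FPKM at VLC 24 h and 66.8 FPKM at VLC 12 h, with 55.8 FPKM at HC 24 h and 74.1 FPKM at HC 12 h. Taken gene by gene, the median log2 change was -1.01 in VLC and 0.05 in HC. As measured, the difference between the arms was called lower for 14 of the 41 and higher for none. Relative to the median gene it was called for none. Of 102 ubiquitin and autophagy genes 10 (9.8%) rose and 9 (8.82%) fell, both under the shares over all members. With quantile normalization 19 of them rose. Of 93 chaperones 19 (20.4%) rose and 11 (11.8%) fell. The largest chaperone fall was that of a DnaJ-type heat shock protein 40 gene (g5485), with 5.72 and 6.07 FPKM at VLC 24 h and 86.6 and 90.1 FPKM at VLC 12 h. A heat shock protein 70 gene (g3145) had 126 and 120 FPKM at VLC 24 h and 883 and 1223 FPKM at VLC 12 h, and the largest rises were DnaJ-type genes too (g2091, log2 change 1.66, and g1676, 1.60).

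Lipid genes were called in both directions. In fatty acid synthesis 5 of 17 genes (29.4%) rose and 4 (23.5%) fell, beside 14.9% and 20.5% of all members. An acetyl-CoA carboxylase (g7511), which makes malonyl-CoA, had 242 and 262 FPKM at VLC 24 h and 101 and 88.6 FPKM at VLC 12 h, while a type I fatty acid synthase (g927) fell to 56.2 ± 5.34 FPKM at VLC 24 h, against 322 ± 23.6 FPKM at VLC 12 h (SD, n = 2 each). Among 19 desaturases and elongases 4 (21.1%) rose and 5 (26.3%) fell. A delta-4 desaturase (g1678) had 251 and 219 FPKM at VLC 24 h and 51.5 and 56.5 FPKM at VLC 12 h, and a delta-5 desaturase (g8906) had 122 and 97.7 FPKM at VLC 24 h and 24.8 and 28.9 FPKM at VLC 12 h. A gene annotated as another delta-5 desaturase (g1001) had 8.01 and 7.35 FPKM at VLC 24 h and 76.7 and 91.5 FPKM at VLC 12 h, so genes of the same annotated step moved apart. In HC g1678 had 86.7 FPKM at 24 h and 139 FPKM at 12 h, and the difference between the arms was 2.77 ± 0.14 (limma, adjusted p = 6.2e-09). Of 20 acylglycerol assembly genes 2 (10%) rose and 1 (5%) fell, both under the shares of all members. The rises were g9146 (1.29) and g7358 (1.21), and the fall was g2042 (-1.82). All 3 are annotated as acyltransferases of diacylglycerol, the kind of enzyme that forms triacylglycerol. Lipases and fatty acid oxidation had 10 of 59 genes higher and 13 lower, beside 14.9% and 20.5% of all members. Of the 48 at the FPKM minimum at both times 6 rose and 7 fell. The acyl-CoA synthetase g2396, whose family links long fatty acids to coenzyme A, had 39.9 and 38.5 FPKM at VLC 24 h and 6.28 and 7.28 FPKM at VLC 12 h, and its means in HC were 0.26 FPKM at 24 h and 0.11 FPKM at 12 h.

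Among genes of chromosome duplication and division more fell than rose. Of 54 DNA replication and histone genes 28 (51.9%) fell and 3 (5.56%) rose, beside 20.5% and 14.9% over all members. Their median log2 ratio was -1.12. Among the 41 of them at the FPKM minimum at both times 19 fell and 2 rose. Over all 7218 members at the minimum at both times 13.2% fell and 13.2% rose. Histone H2A (g7083), a core packaging protein of chromatin, had 312 and 298 FPKM at VLC 24 h and 3174 and 3548 FPKM at VLC 12 h, an 11.0-fold fall (log2 change -3.45 ± 0.07, limma, adjusted p = 4.3e-14). The replication licensing factor MCM3 (g841) had 9.59 and 8.75 FPKM at VLC 24 h and 116 and 124 FPKM at VLC 12 h. All 6 histone genes of a list drawn up after the values were seen fell. Of the 61 cell cycle and mitosis genes 18 (29.5%) fell and 4 (6.56%) rose. Of the 45 at the minimum at both times 8 fell and 2 rose. Cyclin B2 (g5534), which drives entry into mitosis, fell, with 7.70 and 5.85 FPKM at VLC 24 h and 109 and 116 FPKM at VLC 12 h. A kinetochore protein gene (g3662) had 16.1 and 13.5 FPKM at VLC 24 h and 255 and 258 FPKM at VLC 12 h, and an Aurora-like kinase (g8609, counted with the kinases) had 7.78 and 6.74 FPKM at VLC 24 h and 111 and 110 FPKM at VLC 12 h. All 3 were called lower in HC too, where cyclin B2 had 10.4 FPKM at 24 h and 154 FPKM at 12 h. The lists as a whole did not fall in HC. The median log2 change of replication and histone genes was 0.37 in HC and -1.05 in VLC. For cell cycle and mitosis genes it was 0.42 in HC and -0.45 in VLC. Over all members it was 0.64 in HC and 0.12 in VLC. The 6 histone genes went the other way, with a median of -2.77 in HC. As measured, the median difference between the arms was -0.87 for replication and histone genes and -0.54 for cell cycle and mitosis genes. It was -0.58 over all members. Relative to the median gene the difference was called higher for 2 and lower for 8 of the 54 replication and histone genes. Of the 61 cell cycle and mitosis genes it was called higher for 3 and lower for 3, beside 1105 and 399 of all 8924 members.

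Among cytoskeleton and vesicle traffic genes more fell than rose as well. Of 77 cytoskeleton and flagellar-type genes 34 (44.2%) fell and 7 (9.09%) rose, beside 20.5% and 14.9% over all members. Beta tubulin (g8842), the building block of microtubules, had 19.1 and 15.02 FPKM at VLC 24 h and 350 and 341 FPKM at VLC 12 h. Only 44 of the 77 were at the FPKM minimum at both times, and of those 11 fell and 6 rose. Over all 7218 members at the minimum at both times 13.2% fell and 13.2% rose. Of 92 small GTPase and vesicle traffic genes 49 (53.3%) fell and 3 rose, with a median log2 ratio of -1.12, and of the 78 at the minimum at both times 38 fell and none rose. A SNARE gene (g754), of the family that fuses vesicles with membranes, had 3.70 and 3.29 FPKM at VLC 24 h and 45.2 FPKM in both VLC 12 h libraries. A ras-related GTP-binding gene (g5904) rose, with 37.5 and 36.1 FPKM at VLC 24 h and 8.24 and 7.10 FPKM at VLC 12 h.

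Of 62 cell wall and storage carbohydrate genes 10 (16.1%) rose and 16 (25.8%) fell, beside 14.9% and 20.5% over all members. Of the 52 at the minimum at both times 9 rose and 7 fell, beside 13.2% and 13.2% of all 7218 such members. Cellulase 2 (g323) had 7.14 and 6.95 FPKM at VLC 24 h and 195 and 212 FPKM at VLC 12 h, and the endoglucanase g2816 had 8.26 and 8.52 FPKM at VLC 24 h and 214 and 216 FPKM at VLC 12 h. Other enzymes of the same annotated kind rose: beta-glucosidase g6403 had 930 and 892 FPKM at VLC 24 h and 210 and 209 FPKM at VLC 12 h, and the endo-beta-1,4-glucanase g3136 had 193 and 172 FPKM at VLC 24 h and 47.2 and 44.1 FPKM at VLC 12 h. Of 18 cellulases and endoglucanases, a list drawn up after the values were seen, 5 rose and 7 fell. Of 53 glycosyltransferases, another such list, 32 fell and 3 rose, while of the 29 at the minimum at both times 10 fell and 3 rose. The 3 V-type ATPase genes that fell, of 8 in a list also drawn up afterwards, included g335 and g2482, whose values are given with the largest losses.

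The 12 largest rises among annotated genes were led by the tyrosinase family gene g5946, which belongs to a family of copper oxidases. It had 153 and 141 FPKM at VLC 24 h and 4.37 and 4.08 FPKM at VLC 12 h, a 34.8-fold rise (log2 change 4.82 ± 0.18, limma, adjusted p = 8.9e-12). It had been at 0.63 FPKM at 0 h and 1.29 FPKM at VLC 6 h, and in HC it had 2.29 FPKM at 24 h and 0.63 FPKM at 12 h. The gene before it, g5945, which has no annotation and ends 94 bp away on scaffold00185, had the largest gain of all called genes, with 3303 and 2936 FPKM at VLC 24 h and 94.8 and 97.6 FPKM at VLC 12 h. In HC it had 38.8 FPKM at 24 h and 7.91 FPKM at 12 h. The libraries did not record the strand, so reads from the 2 neighbours can be told apart only by position.

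The other large rises had diverse annotations. Aspartyl proteases g4267 (77.2 and 76.9 FPKM at VLC 24 h, 8.78 and 10.2 FPKM at VLC 12 h) and g3168 (79.0 and 79.0 FPKM at VLC 24 h, 14.2 and 12.9 FPKM at VLC 12 h) were among them. A PA-phosphatase-like gene (g4866) had 256 and 252 FPKM at VLC 24 h and 40.6 and 39.4 FPKM at VLC 12 h, a NAD-dependent epimerase (g1958) had 231 and 222 FPKM at VLC 24 h and 35.7 and 37.2 FPKM at VLC 12 h, and the beta subunit of the signal recognition particle receptor (g6997) had 176.2 and 169.7 FPKM at VLC 24 h and 28.1 and 28.3 FPKM at VLC 12 h. For each of these 5 genes the libraries of the 2 times were well apart. The TehB methyltransferase g10226, the copper-translocating P-type ATPase g2283, the urea/Na+ symporter g6410 and the sugar epimerase g1443 followed, with log2 changes of 2.48, 2.45, 2.38 and 2.38. CA5 and the U3 gene g1748, given above, made up the 12.

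The 12 largest falls among annotated genes had log2 changes between -5.18 and -4.54. The N-acetylglucosamine transferase g6480 fell furthest, to 5.27 and 4.11 FPKM at VLC 24 h, against 204.6 and 203.6 FPKM at VLC 12 h (log2 change -5.18, limma, adjusted p = 8.1e-13). Another GlcNAc transferase (g5983) and the glycosyltransferases g2524 and g4055 were in the set, as was cellulase 2. A manganese lipoxygenase (g6570), an enzyme that oxidises polyunsaturated fatty acids, had 14.6 and 12.0 FPKM at VLC 24 h and 380 and 361 FPKM at VLC 12 h. The Myb-like transcription factor genes g5811 (5.02 and 4.70 FPKM at VLC 24 h, 148 and 161 FPKM at VLC 12 h) and g10347 (4.13 and 4.99 FPKM at VLC 24 h, 126 and 130 FPKM at VLC 12 h) fell alongside. The others were a flagellar associated protein (g997), a poly(A) binding protein (g706), a gene annotated by similarity to a retrovirus receptor (g5159) and an endonuclease/exonuclease/phosphatase family gene (g3752). Each of the 12 was also called lower in HC.

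Counted in FPKM, the largest losses were in genes of high level. The V-type ATPase gene g335, a subunit of the proton pump of vacuoles, had 1112 and 1208 FPKM at VLC 24 h and 8508 and 8541 FPKM at VLC 12 h, and g2482, another subunit, had 447 and 497 FPKM at VLC 24 h and 4977 and 5259 FPKM at VLC 12 h. Both models lie at the start of their scaffolds (from base 26 of scaffold00008 and from base 17 of scaffold00077). Both were called lower in HC too, where g335 had 1477 FPKM at 24 h and 10963 FPKM at 12 h. The 4 other largest losses had no annotation: g10414 had 72.9 and 66.4 FPKM at VLC 24 h and 5277 and 5741 FPKM at VLC 12 h, g4815 had 776 and 669 FPKM at VLC 24 h and 6435 and 6787 FPKM at VLC 12 h, g2813 had 2359 and 2034 FPKM at VLC 24 h and 7010 and 7882 FPKM at VLC 12 h, and g3746 had 538 and 473 FPKM at VLC 24 h and 4178 and 4263 FPKM at VLC 12 h. The call of g2813 was lost with quantile normalization (-0.78). Beside g5945, CA5 and the aldolase, the largest gains were in genes without a functional annotation: g5406 had 3516 and 3494 FPKM at VLC 24 h and 1412 and 1205 FPKM at VLC 12 h, g855 had 2982 and 2682 FPKM at VLC 24 h and 946 and 1034 FPKM at VLC 12 h, and g5220 had 1545 and 1476 FPKM at VLC 24 h and 153 and 150 FPKM at VLC 12 h.

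Regulators and transporters were called in both directions. Of 189 genes matched as transcription factors 40 (21.2%) rose and 27 (14.3%) fell, beside 14.9% and 20.5% of all members. Relative to the median gene 28 rose and 29 fell, beside 11.5% and 22.6% of all members. Of the 153 at the FPKM minimum at both times 32 rose and 9 fell, beside 13.2% and 13.2% of all 7218 such members. The list follows the annotation and takes in g9643, a membrane-bound peptidase that processes transcription factors, with 73.9 and 72.7 FPKM at VLC 24 h and 18.1 and 18.3 FPKM at VLC 12 h. The MYB-related gene g4801 had 14.4 and 18.8 FPKM at VLC 24 h and 2.49 and 2.95 FPKM at VLC 12 h. Of 142 kinases and phosphatases 18 (12.7%) rose and 38 (26.8%) fell. A calcium-dependent kinase (g3817) had 71.7 and 54.8 FPKM at VLC 24 h and 13.9 and 18.7 FPKM at VLC 12 h. Among the 97 kinases and phosphatases at the FPKM minimum at both times, 12 rose and 11 fell, which is near the 13.2% and 13.2% of all such members. Of 198 transporters 22 (11.1%) rose (14 relative to the median gene) and 57 (28.8%) fell, beside 14.9% and 20.5% of all members, and of the 163 at the minimum at both times 18 rose and 36 fell. The calcium channel TPC1 gene g1385 fell to 4.57 and 4.59 FPKM at VLC 24 h, against 112 and 102 FPKM at VLC 12 h. In nitrogen assimilation 3 of 19 genes (15.8%) rose, a share near that of all members. Among them were the NADP-dependent glutamate dehydrogenase g2560 (228 and 245 FPKM at VLC 24 h, 87.1 and 85.4 FPKM at VLC 12 h) and glutamate synthase g4703 (105 and 111 FPKM at VLC 24 h, 39.6 and 36.6 FPKM at VLC 12 h). Both make glutamate. The ammonium transporter g6291 fell to 64.0 and 63.3 FPKM at VLC 24 h, against 141 and 144 FPKM at VLC 12 h. Of 82 thioredoxin, glutathione and oxidant defence genes 8 (9.76%) rose and 10 (12.2%) fell, both under the shares of all members.

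Cultures left at HC showed how much of this also took place without the transfer. From HC 12 h to HC 24 h 3523 of 8649 genes rose (40.7%) and 1753 fell (20.3%), with a median log2 change of 0.67. Over the 8464 genes tested in both arms, 1051 of the 1235 genes that rose in VLC (85.1%) also rose in HC, where they made up 30.5% of the 3441 rises. Likewise 1343 of the 1763 genes that fell in VLC (76.2%) also fell in HC, where they made up 79.9% of 1680 falls. Opposite calls were rare, with 36 genes higher in VLC and lower in HC and 4 lower in VLC and higher in HC. Across these genes the 2 changes had a Pearson correlation of 0.87, given as a description over genes, which are not independent.

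The difference between the arms, (VLC 24 h minus VLC 12 h) minus (HC 24 h minus HC 12 h), was tested on 9109 genes at the FPKM minimum in any of the 4 groups. As measured, 559 genes (6.14%) were higher and 2302 (25.3%) lower in VLC than in HC. The median gene had a difference of -0.58, and relative to it 1179 genes (12.9%) were higher and 423 (4.64%) lower. The direction of this split thus depended on the scaling. The median member had 31.3 FPKM at VLC 12 h and 19.96 FPKM at HC 12 h, and the 10 most abundant genes took 15.3 and 15.8% of the summed FPKM at HC 12 h. Their part in the difference was not tested.

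On both scales CA5, SLC26 g9142, LCIA g544 and the PPDK genes g5453 and g5454 had a higher change in VLC, and LCIA g545, the ABC transporter g6647, PEPCK, the complex I subunit g4915, the tetrahydrofolate dehydrogenase g8540, carbamoyl phosphate synthase g1666 and the translocators g521 and g6303 a lower one. LCIA g544 and g545 are neighbours 555 bp apart with opposite signs: g545 had 67.2 and 66.8 FPKM at VLC 24 h and 53.4 and 50.3 FPKM at VLC 12 h, with 151 FPKM at HC 24 h and 28.2 FPKM at HC 12 h. Of the 26 antenna and photosystem genes 13 were lower and none higher relative to the median gene, their median level being 1071 FPKM at VLC 24 h and 786 FPKM at VLC 12 h, with 1524 FPKM at HC 24 h and 323.3 FPKM at HC 12 h. Of 92 small GTPase and vesicle traffic genes 19 were higher and none lower on that scale, and of 142 kinases and phosphatases 37 were higher and 3 lower. Over all 8924 members 1105 were higher and 399 lower. As measured, the counts were 0 higher and 24 lower for the antenna and photosystem genes, 3 and 8 for small GTPases, 24 and 16 for kinases, and 503 and 2233 over all members, so that the direction for small GTPases and for all members depended on the scaling.

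**Figure D5:**
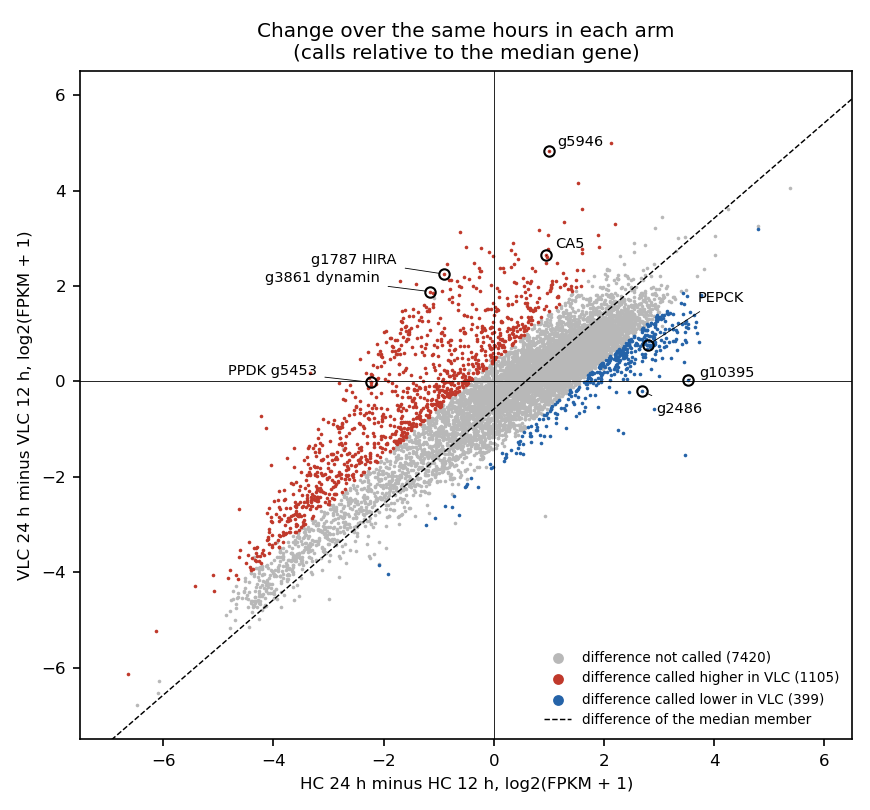
Change in log2(FPKM + 1) from 12 h to 24 h in VLC (vertical axis) against that in HC (horizontal axis) for the 8924 genes. Colours give the call of the difference between the arms relative to the median gene (1105 higher, 399 lower), and most genes lie along a band that runs with the dashed line.

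The highest differences between the arms among annotated genes were those of g5946, given above, and of 5 genes that were higher at VLC 24 h than at VLC 12 h and lower at HC 24 h than at HC 12 h. The HIRA gene g1787, a histone chaperone, had 84.5 and 78.5 FPKM at VLC 24 h and 16.4 and 16.2 FPKM at VLC 12 h, with 38.5 and 39.3 FPKM at HC 24 h and 73.0 and 74.9 FPKM at HC 12 h (difference 3.16 ± 0.13, limma, adjusted p = 2.3e-09). The dynamin-related gene g3861, of a family of membrane-cutting GTPases, had 402 and 318 FPKM at VLC 24 h and 90.3 and 103 FPKM at VLC 12 h, with 202 and 201 FPKM at HC 24 h and 454 and 446 FPKM at HC 12 h. A cytochrome P450 (g8290), a beta-lactamase family gene (g2322) and an FAD-linked oxidase (g10409, under the FPKM minimum in both VLC groups) had the same pattern at lower levels. The rise of g8290 in VLC was not called relative to the median gene (0.93) or without VLC 12 h replicate 1 (0.98).

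The lowest differences belonged to genes that were nearly level or lower in VLC and strongly higher at HC 24 h. The calmodulin-like domain kinase g10395 had 38.3 and 39.3 FPKM at VLC 24 h and 39.0 and 36.5 FPKM at VLC 12 h, with 34.4 and 33.4 FPKM at HC 24 h and 1.98 and 2.10 FPKM at HC 12 h. The SOS2-type kinase g2486 had 83.7 and 86.1 FPKM at VLC 24 h and 99.2 and 96.9 FPKM at VLC 12 h, with 85.1 and 81.1 FPKM at HC 24 h and 11.9 and 12.1 FPKM at HC 12 h. For both kinases the arms were at similar levels at 24 h and apart at 12 h, and the VLC groups of g10395 overlapped. The adenosine kinase-like flagellar associated genes g7175 and g7188, on the same scaffold, had 77.3 and 85.7 FPKM (g7175) and 35.5 and 35.1 FPKM (g7188) at HC 24 h. At VLC 24 h and VLC 12 h g7175 averaged 7.83 and 16.8 FPKM and g7188 3.15 and 8.33 FPKM, and g7188 was under the FPKM minimum. The fall of g7175 was not called with quantile normalization (-0.84), without VLC 24 h replicate 1 (-0.97) or without VLC 12 h replicate 2 (-0.93), and reads shared by near-identical copies were left out. The tyrosine phosphatase g6079 and the triose phosphate translocator g6303 completed the set.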

How the data were processed

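RNA of 18 libraries had been sequenced on an Illumina HiSeq, without strand. The authors used TopHat2 (2.0.4) on the genome of strain IMET1, dropped multi-mapped reads and deposited Cufflinks FPKM for 9756 genes (2.0.2 by the submitters' notes, while the paper gives another version). Steps among the lowest values were too uneven to give whole reads, and count models were not used.

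From the deposited FPKM, log2(FPKM + 1) was fitted by limma (3.58.1, R 4.3.3, trend) for 9265 genes and all 9 groups. Benjamini-Hochberg adjustment ran over genes whose mean FPKM was 10 or more in a compared group. A call required 2-fold and an adjusted p no higher than 0.05. The pseudocount understates changes of low genes. List medians are log2 ratios of mean FPKM without it. Tables and plots were made with Python 3.11.15, numpy 2.4.6, pandas 2.3.3 and matplotlib 3.10.9. On simulated data for VLC 24 h against VLC 12 h, 100 of 100 genes changed 2.5-fold and 100 of 100 changed 4-fold were called, and 0 of 8168 unchanged genes. The changed genes were drawn from those well above the FPKM minimum at VLC 12 h. Noise was normal with each gene's own spread, and most genes were left unchanged, unlike in the data. The simulation therefore checks the code and says little about genes near the minimum.

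Named genes were all 68 genes of the study's lists, the 12 largest rises and 12 largest falls among called annotated genes whose groups did not overlap, the 6 largest gains and losses in FPKM, up to 4 called genes per keyword list, and the 6 highest and 6 lowest called differences between arms. Genes, members and lists were chosen with earlier results of these data known. Keyword lists match the deposited annotation; 4 of them (histones, glycosyltransferases, cellulases, V-type ATPase) were added after values were seen. Same-numbered libraries did not deviate together (correlation -0.06). Alternatives were other pseudocounts, minimums, scalings, fits and leaving out each library.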

Additional observations from a re-analysis of the deposited data

Results flagged for a closer look

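The following genes changed differently in the 2 arms, by a limma test of the difference of log2 changes, (VLC 24 h minus VLC 12 h) minus (HC 24 h minus HC 12 h), called (2-fold, adjusted p no higher than 0.05) on the scale as measured and again after centring on the median gene. All values below are relative to the median gene. The difference was 4.40 for the tyrosinase gene g5946, 3.74 for HIRA g1787, 3.68 for the beta-lactamase gene g2322, 3.67 for the FAD-linked oxidase g10409, 3.61 for the dynamin-related gene g3861 and 3.59 for the cytochrome P450 g8290. It was -3.95 for the tyrosine phosphatase g6079, -2.91 for the translocator g6303, -2.90 for the calmodulin-like domain kinase g10395, -2.69 for g7175, -2.50 for g7188 and -2.32 for the SOS2-type kinase g2486. The values of g6079 at VLC 24 h (7.08 and 4.77 FPKM) and VLC 12 h (4.52 and 7.37 FPKM) overlapped, and it differed through HC (59.3 FPKM at 24 h, 1.60 FPKM at 12 h).

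Among the study's own genes the difference was 2.26 for CA5 (g6125), 2.33 for LCIA g544, 2.17 for SLC26 g9142, 2.79 for PPDK g5453 and 2.73 for PPDK g5454. It was -1.44 for LCIA g545, -1.40 for the ABC transporter g6647, -1.46 for PEPCK (g6884), -1.28 for the complex I subunit g4915, -1.04 for the tetrahydrofolate dehydrogenase g8540, -1.30 for carbamoyl phosphate synthase g1666 and -1.27 for the translocator g521. These genes are a small part of the 1179 higher and 423 lower differences over all genes tested.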

How the results depend on the processing

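The comparison of VLC 24 h with VLC 12 h called 1331 genes higher and 1829 lower. With limma's test against a 2-fold threshold it called 2063 genes, 623 of them higher. With no fold minimum it called 7087, 3890 higher and 3197 lower. With FPKM of at least 10 in both groups, an alternative chosen after seeing the data, it called 1908, of which 952 were lower. Leaving out each library gave 1274 to 1374 higher and 1811 to 1850 lower. With the numbers taken as a replicate block it called 3162 genes (1333 higher, 1829 lower) and changed the call of none of the 204 named genes. Whether libraries of the same number came from the same reactor is unknown.

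The difference between arms called 559 genes higher and 2302 lower (2861). Relative to the median gene it called 1602 (1179 higher, 423 lower), with quantile normalization 1640 (899 higher, 741 lower), with the 2-fold threshold test 854 (297 and 557), with no fold minimum 6528 (1187 and 5341), and with FPKM of at least 10 in all 4 groups 1518 (284 and 1234). With the replicate block it called 2866. HC 24 h against HC 12 h called 3523 higher and 1753 lower. Relative to the median gene 1729 were higher, and with FPKM of at least 10 in both groups it called 2701 (1798 higher, 903 lower). With fewer genes tested, counts are lower by construction, and for the scalings the cause was not tested.

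Of the 204 named genes 152 were called, and none of these took the opposite sign under an alternative that gave it a value; FPKM of at least 10 in all groups compared gave values for 149 of the 204. Without VLC 12 h replicate 2, 8 lost their call, and relative to the median gene 9 did. The pseudocount of 0.1 cost the call of g6134 (1.15). With quantile normalization 3 named calls were lost and 4 gained, and with the 2-fold threshold test 26 were lost. Counts of called members of a list moved by over 1.5 times in 69 cases with no fold minimum, in 35 with the 2-fold threshold test, in 18 with FPKM of at least 10 in all groups compared, in 17 relative to the median gene, in 10 with quantile normalization, in 2 with the pseudocount of 0.1 and in 2 to 6 on leaving out a library. FPKM keep no read numbers per gene, so low genes rest on unknown read numbers.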

Other observations

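Genes without a functional annotation were 4207 of the 8924 members. Of these, 633 rose and 984 fell (23.4%) at VLC 24 h against VLC 12 h, beside 698 and 845 (17.9%) of the 4717 annotated members. The difference was not tested.

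Called genes often lay next to each other. Among 8025 pairs of adjacent members on a scaffold, 279 had both genes called higher (3.48%) and 546 both called lower (6.80%). Of the neighbours of a gene that fell, 33.7% also fell, beside 20.5% over all members, and of the neighbours of a gene that rose 23.3% also rose, beside 14.9%. None of these adjacent pairs overlap in the deposited coordinates, and reads were not assigned by strand. The part of reads that run past the end of a neighbouring model was not tested. The median span of a gene from first to last base was 2301 bp for genes called higher, 2197 bp for genes called lower and 2105 bp for genes not called.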
